A study of Mus musculus with 12 samples.

Results

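The 8 genes described here build, load and control MHC class II, and their rows were found by gene symbol. They are the chains of the classical class II molecules (H2-Aa, H2-Ab1 and H2-Eb1), the invariant chain Cd74, the peptide editor H2-DM (H2-DMa, H2-DMb1 and H2-DMb2) and the class II transactivator Ciita. All 8 were found among the 10655 genes measured by SMART-seq, a full-length RNA sequencing method, in 12 libraries of total RNA from mouse aortic endothelial cells (MAECs). Each of the 4 groups held 3 libraries and is named by 2 diets, CD and WD as the labels spell them, and the mother's diet was taken to come first and the offspring's last because the series text orders them so. CD_CD and WD_CD are thus CD offspring of CD and of WD mothers, and CD_WD and WD_WD are WD offspring of CD and of WD mothers, whose WD was resumed for 4 weeks before the cells were taken. The series title names a maternal high-fat diet and atherosclerosis in offspring as its subject. No genotype, strain, sex, age, sorting step or batch is given for any group, and all groups share the same cell label and the same Trizol extraction. Whether replicates are separate animals is likewise not given, so p-values here reflect no more than the scatter among these samples, and that scatter may be technical.

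MHC class II molecules are pairs of an alpha and a beta chain that carry peptides from endocytosed proteins to the cell surface, where CD4+ T cells read them. The invariant chain guides newly made pairs to endosomes, proteases cut it down to a short plug in the peptide groove, and H2-DM exchanges that plug for peptides. Ciita, which does not itself bind DNA, switches these genes on together through factors bound to paired promoter elements called the X and Y boxes. B cells, dendritic cells and activated macrophages make class II without further induction, and many other cells, endothelial cells among them, can do so after interferon gamma.

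Of the 8 genes, 6 lie within 197 kb of chromosome 17 (GRCm38, GENCODE annotation): H2-DMa at chr17:34119541-34139101, H2-DMb2 at chr17:34143307-34151555, H2-DMb1 at chr17:34153072-34160230, H2-Ab1 at chr17:34257689-34269419, H2-Aa at chr17:34282744-34287823 on the minus strand and H2-Eb1 at chr17:34305867-34316674. Ciita lies at chr16:10480059-10528418. RefSeq promoter windows (GRCm38.p6, 250 bases before to 50 after the start) matched 5 of the 8 genes, with 6 windows. Cd74, H2-Ab1 and Ciita had no match. The stretches below are shown because X and Y boxes are the elements through which Ciita acts, and each ends at a Y-box type motif, TGATTGG, written in capitals. The other capitals mark an X-box type motif, AAC and ATGATG with any 2 bases between them, in H2-Eb1, H2-DMb2 and H2-Ob, and the cyclic AMP response element TGACGTCA in H2-Aa. All are read 5′ to 3′ on the strand of the gene, which is minus for H2-Aa and plus for the others.
H2-Aa: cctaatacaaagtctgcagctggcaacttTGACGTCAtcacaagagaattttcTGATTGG
H2-Eb1: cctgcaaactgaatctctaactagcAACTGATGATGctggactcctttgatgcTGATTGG
H2-DMb2: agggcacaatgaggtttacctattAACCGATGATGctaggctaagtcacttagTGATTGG
H2-Ob: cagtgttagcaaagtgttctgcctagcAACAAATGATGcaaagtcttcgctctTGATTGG

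These 60-base stretches lie at chr17:34287867-34287926 (H2-Aa), chr17:34305753-34305812 (H2-Eb1), chr17:34145104-34145163 (H2-DMb2) and chr17:34238793-34238852 (H2-Ob). Their last bases stand 44, 55, 86 and 53 bases before the start site. Between the boxes lie 17 bases in H2-Eb1, 18 in H2-DMb2 and 15 in H2-Ob, and H2-DMb1, whose stretch is not shown, also has both boxes, 18 bases apart. Searched on both strands of 32851 promoter windows of that length, the X-box type letters were in 45 (0.137%), the Y-box type in 2568 (7.82%) and the response element in 588 (1.79%). The X-box type followed on the same strand by the Y-box type after 5 to 25 bases was in 4 windows (0.0122%), those of H2-DMb1, H2-DMb2, H2-Eb1 and H2-Ob. The Y-box letters contain the inverted CCAAT element, and no motif overlaps another in the stretches shown. The letters were read from these promoters themselves, so the match is a description of the sequences and shows no bound factor. The windows of H2-DMa held none of these letters.

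The libraries held between 4074413 and 19670570 reads in genes, and values are the deposited normalised counts, reads divided by a factor per library. A single read was worth between 0.347 and 3.96 normalised counts. The MAEC label was checked against 13 endothelial markers, such as Pecam1, Cdh5 and Vwf, all of which were measured. Their summed normalised count ranged from 57579 to 95646 in the 6 libraries of CD offspring and from 2216 to 36221 in the 6 of WD offspring, with the lowest sum in CD_WD replicate 1, which thus goes against its cell label. That library does not stand alone. In each of the 6 WD offspring, and in WD_CD replicate 1, the sum of 12 macrophage markers was above the endothelial sum (948943 against 19357 in WD_WD replicate 1). Sums over different genes do not give cell numbers. The differences of the class II genes between offspring diets with CD mothers are given with and without CD_WD replicate 1. Many other results are given only with that library. Among them are the counts of markers and listed genes that passed, the means per exonic length and the differences of Psmb8 and Psmb9.

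The 8 genes together took 0.213%, 0.199% and 0.416% of all reads in CD_CD replicates 1, 2 and 3 and 1.17%, 0.15% and 0.391% in WD_CD. In CD_WD they took 13.3%, 4.72% and 4.26%, and in WD_WD 4.51%, 3.07% and 2.27%. Every library of WD offspring was therefore above every library of CD offspring, and CD_WD replicate 1 was the highest of all 12. The 95% Wilson intervals of these shares reach at most 0.0198 percentage points to either side, which covers counting error only. Cd74 alone held 7.98% of the reads of CD_WD replicate 1, where it ranked 1 among all genes. It ranked between 5 and 9 in the other WD offspring, and between 9 and 142 in CD offspring.

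With CD mothers all 8 genes rose in WD offspring, and with WD mothers 7 of the 8 did, against backgrounds of 9.46% and 14.2% of all 10655 genes called higher (limma, adjusted p under 0.05). Without CD_WD replicate 1, 6 of the 8 passed with CD mothers, the exceptions being H2-DMb2 and Ciita, and still 7 with WD mothers. In either direction, 15.0% and 24.4% of all genes were called. The sizes ran from 14.2-fold for H2-DMb1 to 78.5-fold for Cd74 with CD mothers, and from 7.47-fold for H2-DMb1 to 39.7-fold for H2-DMb2 among the genes that rose with WD mothers. Scaled to library totals, which lowers the median of all genes to -1.45 and -1.358 on the log2 scale, the genes that passed ran from 5.24-fold for H2-DMb1 to 28.8-fold for Cd74 and from 2.87-fold for H2-DMb1 to 8.28-fold for Cd74, and H2-DMb2 and Ciita did not pass. The median log2 difference of the 8 genes was 5.38 and 4.13, beside -0.02 and 0.01 over all genes. The CD_WD and CD_CD libraries did not overlap for any of the 8, and WD_WD and WD_CD did not for 7 of them, where 21.9% of all genes in each comparison were higher without overlap. No member was at 0 reads in any library. All 8 passed the filter on low values, a mean of at least 1 over all 12 libraries, which removed 0 genes.

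**Figure D1:**
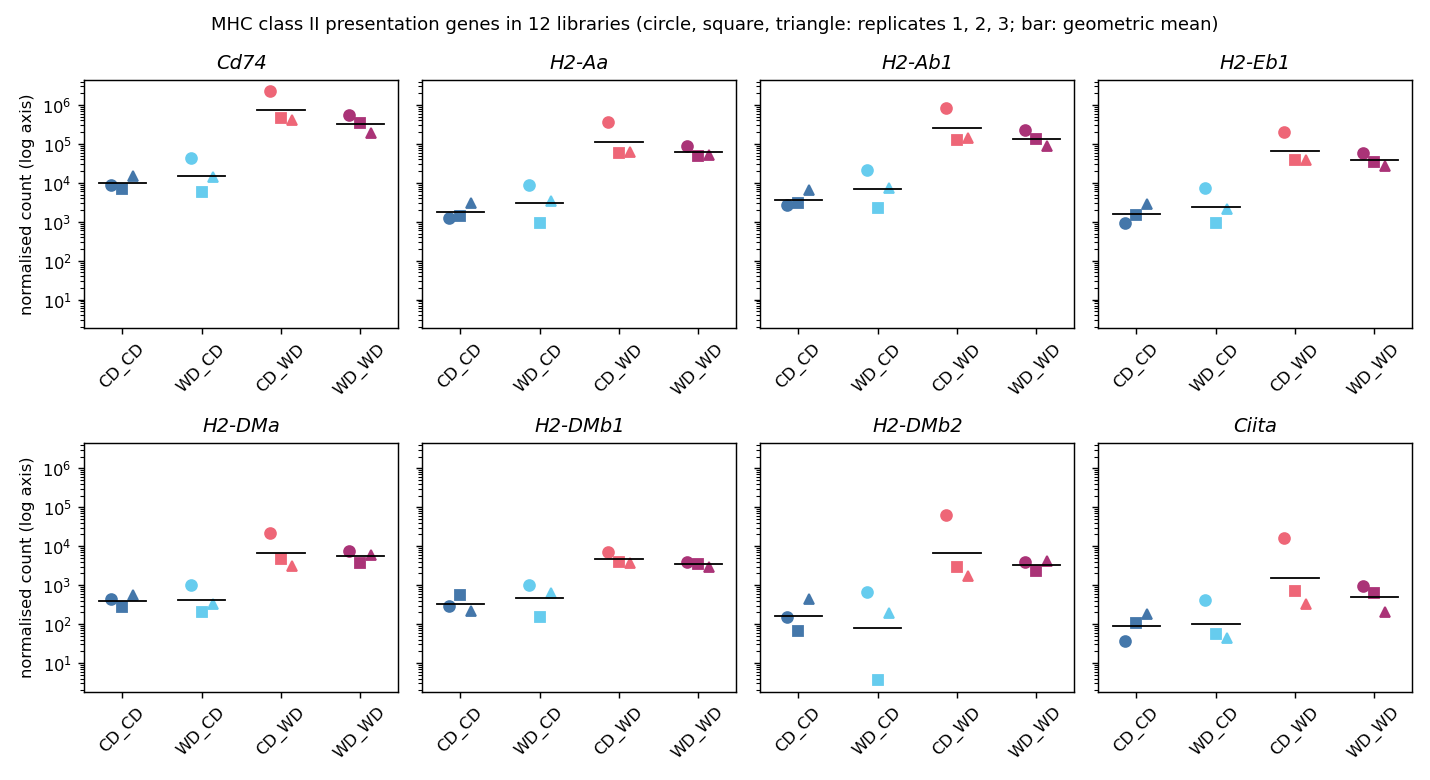
Normalised count (log axis) of each of the 8 genes in the 4 diet groups; circle, square and triangle are replicates 1, 2 and 3 and the bar is the geometric mean of a group. The groups CD_WD and WD_WD stand above CD_CD and WD_CD for each gene except Ciita. Its lowest WD_WD library, at 205.9, and its lowest CD_WD library, at 329.7, lie below its highest WD_CD library, at 406.8.

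H2-Ab1 and H2-Aa encode the beta and the alpha chain of the I-A molecule. In CD offspring H2-Ab1 was at 2673, 3017 and 6457 normalised counts with CD mothers and at 21090, 2292 and 7434 with WD mothers (replicates 1, 2 and 3). In WD offspring it was at 847670, 129277 and 142430 with CD mothers and at 222262, 133296 and 87100 with WD mothers. WD_CD replicate 1 was the highest of the CD offspring and still lay below every WD offspring. The log2 difference between offspring diets was 6.06 ± 0.88 (SE, limma adjusted p = 0.00155) with CD mothers and 4.27 ± 0.88 (limma adjusted p = 0.00517) with WD mothers. Without CD_WD replicate 1 the first was 5.18 (limma adjusted p = 0.000782), a fold of 36.2 in place of 66.9.

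H2-Aa was at 1278, 1427 and 3098 normalised counts in CD_CD and at 8552, 936.4 and 3356 in WD_CD. It was at 362426, 58724 and 63033 in CD_WD and at 87178, 49323 and 51513 in WD_WD. As for its partner chain, the library with the highest value was CD_WD replicate 1 and that with the lowest was WD_CD replicate 2, and the offspring diets did not overlap. H2-Aa rose by 5.95 ± 0.82 on the log2 scale with CD mothers (limma adjusted p = 0.00129; 5.09 without CD_WD replicate 1) and by 4.34 ± 0.82 with WD mothers (limma adjusted p = 0.00327).

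H2-Eb1, the beta chain of the I-E molecule, was at 908.2, 1530 and 2933 normalised counts in CD_CD and at 7249, 908.5 and 2133 in WD_CD. In WD offspring it was at 203502, 38351 and 39163 with CD mothers, while WD mothers gave 59757, 33988 and 27736. Again CD_WD replicate 1 was the highest library, and the lowest WD offspring was above the highest CD offspring. The rise was 5.40 ± 0.79 on the log2 scale with CD mothers (limma adjusted p = 0.00161; 4.60 without CD_WD replicate 1) and 3.99 ± 0.79 with WD mothers (limma adjusted p = 0.00433).

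Cd74, at chr18:60803848-60812652, encodes the invariant chain, which occupies the groove of newly made class II pairs. It was at 8744, 7015 and 14760 normalised counts in CD_CD and at 43791, 5767 and 13769 in WD_CD. In WD offspring it reached 2280270, 470924 and 407477 with CD mothers and 536939, 353906 and 186348 with WD mothers. The highest library of CD offspring, WD_CD replicate 1, lay below the lowest of WD offspring, WD_WD replicate 3. Cd74 rose by 6.29 ± 0.91 on the log2 scale with CD mothers (limma adjusted p = 0.00155) and by 4.44 ± 0.91 with WD mothers (limma adjusted p = 0.0051). Its fold with CD mothers was 78.5 with all libraries and 45.2 without CD_WD replicate 1 (limma adjusted p = 0.000444). Cd74 shares part of its sequence with the microRNA gene Mir5107, which lies inside it on the same strand.

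H2-DMa and H2-DMb1 encode an alpha and a beta chain of H2-DM, which exchanges the invariant chain remnant for peptides. H2-DMa was at 429.1, 276.7 and 546.5 normalised counts in CD_CD, and at 1033, 200 and 319.6 in WD_CD. It was at 21365, 4771 and 3142 in CD_WD and at 7575, 3643 and 5892 in WD_WD, so that every WD offspring was above every CD offspring. The log2 rise of H2-DMa was 4.09 ± 0.70 with CD mothers (limma adjusted p = 0.00308; 3.26 without CD_WD replicate 1) and 3.75 ± 0.70 with WD mothers (limma adjusted p = 0.00308). H2-DMa overlaps Brd2 on the opposite strand, and how strand was handled in counting is not given in the sources used here.

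H2-DMb1 had the narrowest spread among the WD offspring, at 7124, 3923 and 3681 normalised counts in CD_WD and 3948, 3549 and 2871 in WD_WD. In CD offspring it was at 290.7, 572.9 and 213 in CD_CD and at 1024, 148.6 and 628.6 in WD_CD, all below the WD offspring. It rose by 3.83 ± 0.60 on the log2 scale with CD mothers (limma adjusted p = 0.00224; 3.53 without CD_WD replicate 1) and by 2.90 ± 0.60 with WD mothers (limma adjusted p = 0.00555).

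H2-DMb2, a second beta chain gene of H2-DM, varied the most. It was at 156.5, 65.39 and 430.9 normalised counts in CD_CD and at 656.3, 3.586 and 195.9 in WD_CD, where the value of replicate 2 stands for 9 reads. It was at 62444, 2994 and 1695 in CD_WD, and the WD_WD libraries had 3884, 2255 and 4241. The groups of the offspring diets did not overlap, while a single library, CD_WD replicate 1, was 20.9-fold above the next in its group. The log2 rise was 5.37 ± 1.60 with CD mothers (limma adjusted p = 0.0399) and 5.31 ± 1.60 with WD mothers (limma adjusted p = 0.0307). Without CD_WD replicate 1 the first was 3.77 and did not pass (limma adjusted p = 0.126), and it also failed without any of the 3 CD_CD libraries, CD_WD replicate 2 or any of the 3 WD_WD libraries (limma adjusted p from 0.0526 to 0.144). The second was 3.21 without WD_CD replicate 2 (limma adjusted p = 0.103) and failed without any of the 3 WD_WD libraries (limma adjusted p from 0.0614 to 0.0786). The transcripts of H2-DMb1 and H2-DMb2 share 369 of their 50-base windows, 22.7% of the former and 21.2% of the latter, so how reads were split between these genes is uncertain.

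Ciita, the transactivator, was at 37.12, 104.6 and 180.6 normalised counts in CD_CD and at 406.8, 56.18 and 44.14 in WD_CD. It was at 15810, 717.7 and 329.7 in CD_WD and at 942.7, 624.8 and 205.9 in WD_WD. With CD mothers the offspring diets did not overlap, and with WD mothers they did, since WD_CD replicate 1 was above WD_WD replicate 3. The log2 difference was 4.11 ± 1.27 with CD mothers, which passed narrowly (limma adjusted p = 0.046), and 2.29 ± 1.27 with WD mothers, which did not pass (limma adjusted p = 0.202). Without CD_WD replicate 1 the value with CD mothers was 2.44 (limma adjusted p = 0.137). It also failed without any of the 3 CD_CD libraries, CD_WD replicate 2, WD_CD replicate 2 or 3 or any of the 3 WD_WD libraries. Whether the 2 values of Ciita differ was tested as the interaction, which did not pass (-1.82, limma adjusted p = 0.997). Ciita overlaps Dexi on the opposite strand.

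**Figure D2:**
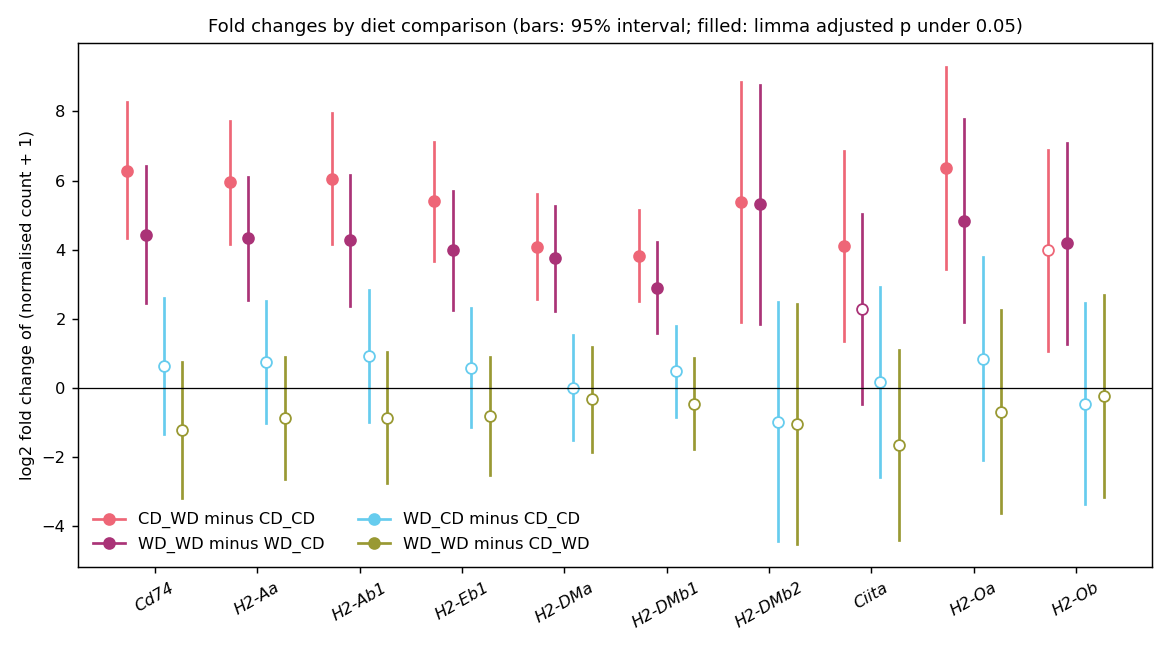
Log2 fold change of normalised count + 1 for each gene in 4 diet comparisons, with its 95% interval; filled points passed limma's adjusted p under 0.05. Points of the offspring diet comparisons lie above 0 for each gene, and mother's diet comparisons have intervals that cross 0.

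The mother's diet gave no call for any of the 8 genes, in CD or in WD offspring, where 0.0% of all genes were called in each comparison. In CD offspring 7 of the 8 genes had a higher log2 mean with WD mothers (median 0.54, beside -0.05 over all genes). That median was -0.159 without WD_CD replicate 1 and 1.292 without WD_CD replicate 2, so its direction rests on the former. H2-Ab1, the beta chain of I-A, had the smallest p, at 0.93 with a 95% interval from -0.97 to 2.83 (limma adjusted p = 1.00). In WD offspring all 8 had a lower log2 mean with WD mothers (median -0.87, beside -0.03), and Cd74 had the smallest p, at -1.21 with an interval from -3.18 to 0.76 (limma adjusted p = 0.901). Without CD_WD replicate 1 the median in WD offspring was 0.004, and without CD_WD replicate 2 it was -1.331. Unadjusted limma p-values were under 0.05 for 0 of the 8 genes in either comparison. By edgeR's quasi-likelihood test 0 passed after adjustment and 1 before it in WD offspring, and by DESeq2, which gave an adjusted p for 6 of the 8, 0 and 2. Of all 10655 genes 628, 543 and 775 had an unadjusted p under 0.05 in WD offspring by limma, edgeR and DESeq2, and 276 in CD offspring by limma. The groups overlapped for all 8 genes in both comparisons, where 4.0% and 4.87% of all genes were higher and lower without overlap in CD offspring and 5.86% and 4.16% in WD offspring. The intervals of H2-Ab1 in CD offspring and Cd74 in WD offspring cross 0. They reach several-fold changes in 1 direction, to 2.83 and to -3.18, and end at -0.97 and 0.76 in the other. A difference by mother's diet was thus not detectable with 3 libraries a group and is not shown to be absent.

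In the authors' deposited table, the 8 genes had log2 fold changes between 0.31 and 1.34 for WD against CD mothers in CD offspring, each with an adjusted p of 1.00. For WD offspring the authors' deposited table gives values from -0.51 for H2-DMb1 to -3.25 for Ciita (p = 0.0146, adjusted p = 0.366 in that table), and -1.55 for Cd74 (p = 0.0371, adjusted p = 0.5).

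The difference between the offspring diet effects under the 2 mothers' diets, tested as an interaction, passed for 0 of the 8 genes and for 0.0% of all genes. The estimates were -1.86 for Cd74, -1.62 for H2-Aa, -1.79 for H2-Ab1, -1.41 for H2-Eb1, -0.34 for H2-DMa, -0.93 for H2-DMb1, -0.06 for H2-DMb2 and -1.82 for Ciita on the log2 scale. All 8 were negative, with a median of -1.51 beside 0.02 over all genes, and leaving out CD_WD replicate 1 gave -0.618 and leaving out WD_CD replicate 1 gave -0.718. No unadjusted limma p was under 0.05 among the 8, edgeR gave 1, and DESeq2, which gave an adjusted p for 6 of them, gave 3. Of all 10655 genes 342, 306 and 453 had an unadjusted p under 0.05 in limma, edgeR and DESeq2. After adjustment 0 of the 8 passed in limma, edgeR or DESeq2.

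Per exonic length the means of the 8 genes stood in nearly the same order in all 4 groups. Cd74 was first, at 6059 ± 2421 normalised counts per kb in CD_CD (SD, n = 3), 12570 ± 11940 in WD_CD, 627100 ± 633400 in CD_WD and 213900 ± 104400 in WD_WD. H2-Ab1, H2-Eb1 and H2-Aa followed in that order, at 1577 ± 814.9, 921 ± 533.5 and 509.3 ± 266.1 per kb in CD_CD and at 57460 ± 26750, 20830 ± 8731 and 16500 ± 5596 per kb in WD_WD. Many neighbours in this order did not differ beyond their spread: the means of 3 of 7 neighbouring pairs differed by more than the larger SD of the pair in CD_CD, 1 of 7 in WD_CD, 0 of 7 in CD_WD and 4 of 7 in WD_WD. H2-Eb1 and H2-Aa did not in any group, and Cd74 and H2-Ab1 did in CD_CD and WD_WD. H2-DMb1 and H2-DMb2 came next in that order, except in CD_WD, where they traded places and CD_WD replicate 1 held the highest H2-DMb2. H2-DMa was next to last and Ciita last, at 11.27 ± 7.526 per kb in CD_CD and 62 ± 38.76 in WD_WD.

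Within each library the classical chains kept close ratios while their levels ranged widely. The level of H2-Ab1 differed 369.8-fold between its lowest and highest library, yet H2-Aa, per exonic length, stayed between 0.25 and 0.4 of H2-Ab1 in all 12. Cd74 stayed between 2.83 and 5.57 times H2-Ab1 in all 12. H2-Eb1 ranged from 0.379 to 0.67 of H2-Ab1 in CD offspring, and from 0.317 to 0.421 under WD, with overlap. These values describe how the alpha and beta chains of I-A and the invariant chain went up and down together from library to library.

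The editor and the transactivator did not keep such ratios. H2-DMa was between 0.032 and 0.12 of H2-Ab1 per exonic length in CD offspring (median 0.064) and between 0.0164 and 0.0504 in WD offspring (median 0.0229). H2-DMb1 ranged from 0.0504 to 0.29 in CD offspring, and from 0.0128 to 0.0504 under WD, so the ranges met without crossing. Ciita ranged from 0.0016 to 0.00934 in CD offspring, and from 0.000623 to 0.00502 under WD, with overlap. H2-DMa, H2-DMb1 and Ciita therefore had lower medians relative to H2-Ab1 in WD offspring, and these ratios were not tested. The same held for H2-DMb2 (0.0422 in CD and 0.0299 in WD offspring), H2-Eb1 (0.489 and 0.359) and H2-Aa (0.313 and 0.294). Only Cd74 had a higher median (3.53 and 4.09). The ratio of H2-DMb2 to H2-DMb1 was 8.43 in CD_WD replicate 1 and between 0.0232 and 1.95 in the other 11 libraries.

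**Figure D3:**
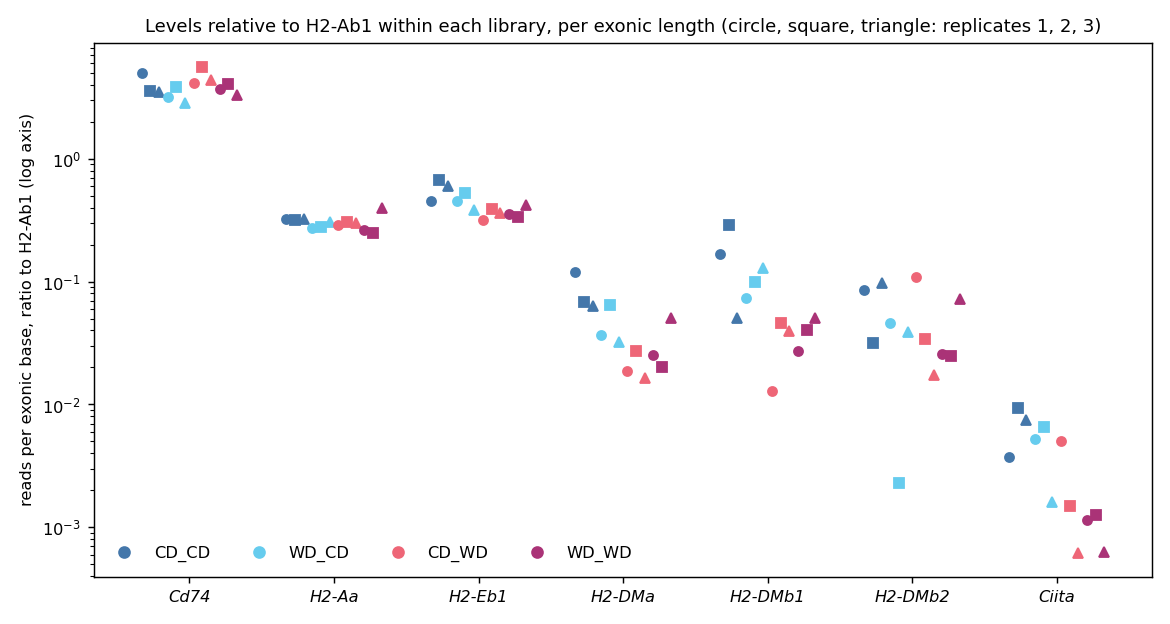
Level of each gene relative to H2-Ab1 within each library, per exonic length (log axis), by diet group; circle, square and triangle are replicates 1, 2 and 3. H2-Aa stays between 0.25 and 0.4 in all libraries, whereas H2-DMb2 and Ciita spread widely.

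H2-Oa and H2-Ob, the chains of H2-DO, a brake on H2-DM known from B cells, lie beside these genes. H2-Oa was at 24.28, 0.8173 and 71.01 normalised counts in CD_CD, where the value of replicate 2 stands for 2 reads, and at 22.48, 10.36 and 71.55 in WD_CD. It was at 8531, 575.4 and 377 in CD_WD and at 978.7, 444.3 and 1025 in WD_WD, with no overlap between offspring diets. H2-Oa rose by 6.37 ± 1.35 on the log2 scale with CD mothers (limma adjusted p = 0.00861; 4.97 and 0.0253 without CD_WD replicate 1) and by 4.83 ± 1.35 with WD mothers (limma adjusted p = 0.0226). The second failed without WD_CD replicate 2 (4.21, limma adjusted p = 0.0782), WD_WD replicate 1 (0.0588) or WD_WD replicate 3 (0.0639).

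H2-Ob was at 176.6, 22.89 and 200.4 normalised counts in CD_CD and at 418.7, 81.68 and 8.693 in WD_CD. It was at 8876, 926.9 and 402.8 in CD_WD and at 1505, 702.1 and 1928 in WD_WD, above CD offspring of the same mothers in every library. The log2 difference was 3.98 ± 1.34 with CD mothers, which did not pass (limma adjusted p = 0.0651), and 4.19 ± 1.34 with WD mothers, which did (limma adjusted p = 0.0388). The latter failed without CD_CD replicate 1, WD_CD replicate 2 or 3, or any of the 3 WD_WD libraries (limma adjusted p from 0.0502 to 0.148). The former was 2.69 without CD_WD replicate 1 (limma adjusted p = 0.213), and it passed without WD_CD replicate 1, WD_CD replicate 3 or CD_WD replicate 3 (limma adjusted p from 0.0343 to 0.0435).

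The stretch from H2-Oa to H2-Eb1 spans 224 kb and holds 13 measured genes, of which 5 do not belong to class II. Psmb8 and Psmb9, subunits of the immunoproteasome, rose with CD mothers by 2.69 (limma adjusted p = 0.00678) and 2 (limma adjusted p = 0.00708) on the log2 scale and with WD mothers by 2.03 (limma adjusted p = 0.019) and 1.35 (limma adjusted p = 0.0318). Psmb8 averaged 1752 ± 352.6 normalised counts in CD_CD and 15070 ± 14670 in CD_WD (SD, n = 3). Tap1, a peptide transporter of the class I pathway, rose by 1.24 with CD mothers (limma adjusted p = 0.0478) but failed without any of 10 of the 12 libraries (limma adjusted p from 0.0522 to 0.142). With WD mothers, Psmb8 failed without WD_CD replicate 2 (0.0747) or WD_WD replicate 1 (0.0577), and Psmb9 without any of the 3 WD_CD libraries or WD_WD replicates 1 or 3 (limma adjusted p from 0.0559 to 0.0987). Brd2, a bromodomain regulator of transcription, did not pass at -0.51 and -0.05, nor did Tap2 at 0.49 and -0.09. With values scaled to library totals in place of the deposited factors, Tap1 was at -0.20 and Tap2 at -0.95 with CD mothers, and Psmb9 at -0.03 with WD mothers. Class II genes thus had larger differences than each of the 5 other genes between them in both comparisons, as measured, without a test of that difference.

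**Figure D4:**
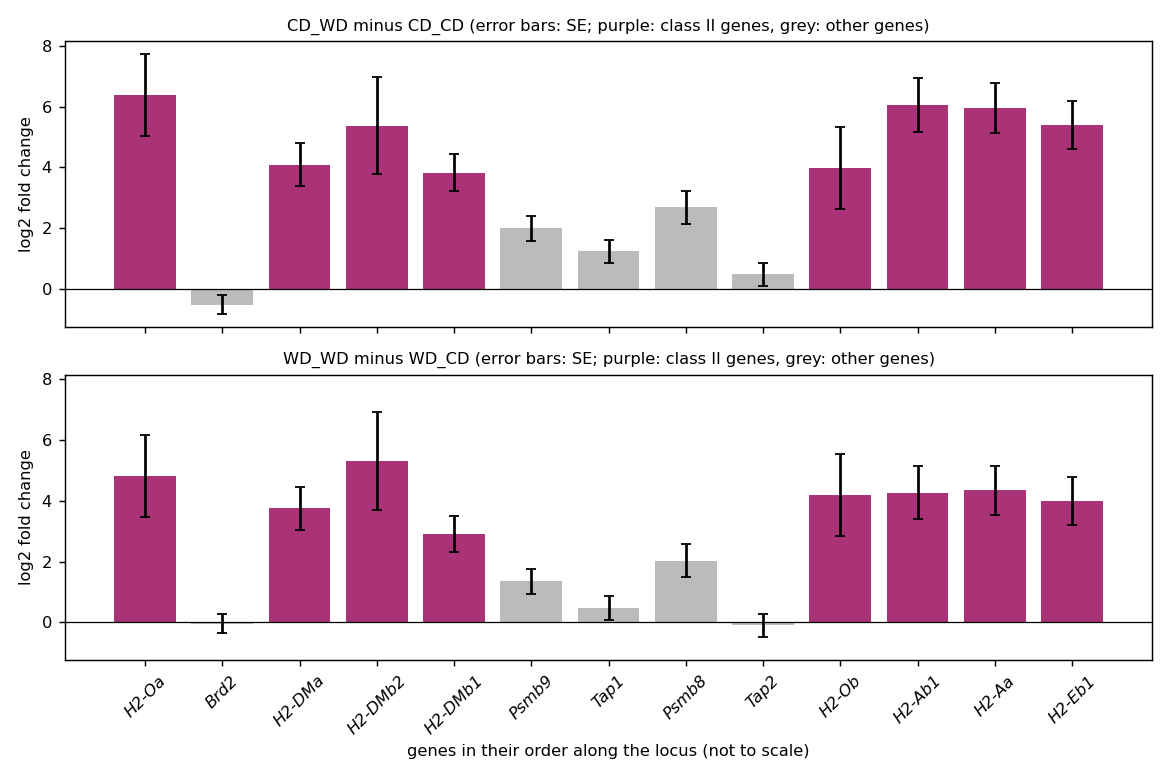
Log2 fold change between WD and CD offspring, with its SE, for the 13 measured genes from H2-Oa to H2-Eb1 in chromosomal order, for CD mothers (top) and WD mothers (bottom); purple bars are class II genes and grey bars the others. The grey bars reach at most 2.69 and 2.03, and the lowest purple bars are 3.83 and 2.90, both of H2-DMb1.

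Genes that process antigen and cut the invariant chain were in part higher in WD offspring. Of 10 such genes 3 rose with CD mothers and 5 with WD mothers, where 9.46% and 14.2% of all genes did. The medians of the 10 were 1.40 and 2.99. Ctss, cathepsin S, which removes most of the invariant chain, averaged 1989 ± 1516 normalised counts in CD_CD and 43670 ± 24990 in CD_WD, and 6897 ± 6955 in WD_CD and 101900 ± 26860 in WD_WD (SD, n = 3). It rose by 4.52 ± 1.00 with CD mothers (limma adjusted p = 0.0107, but 0.0549 without CD_CD replicate 1) and by 4.86 ± 1.00 with WD mothers (limma adjusted p = 0.00522). Ifi30, a reductase that opens disulfide bonds of antigens, rose by 3.95 ± 0.52 (limma adjusted p = 0.00123) and 3.88 ± 0.52 (limma adjusted p = 0.00064), and Ctsz, cathepsin Z, by 2.43 ± 0.48 (limma adjusted p = 0.00599) and 3.39 ± 0.48 (limma adjusted p = 0.000762). Ctsd, cathepsin D, was at 1.33 ± 0.91 with CD mothers, which did not pass with all libraries (limma adjusted p = 0.359) and did without CD_WD replicate 1 (2.57, limma adjusted p = 0.0107). With WD mothers Ctsd rose by 3.23 ± 0.91 (limma adjusted p = 0.0228), a call lost without WD_CD replicates 2 or 3 or WD_WD replicates 1 or 2 (limma adjusted p from 0.0638 to 0.08).

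Of the 7 genes of the factors that bind the X and Y boxes (RFX, NF-Y and CREB), 0 rose in either comparison by limma. Among all genes 9.46% and 14.2% did, and the medians of the 7 were 0.16 and 0.20. Creb1, which encodes the CREB protein, fell with WD mothers, from 627 ± 148.3 normalised counts in WD_CD to 142.2 ± 30.39 in WD_WD (-2.13 ± 0.38, limma adjusted p = 0.00232). With CD mothers it was at -1.03 ± 0.38 and did not pass (limma adjusted p = 0.0869).

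Among 10 measured genes of 11 described for Ciita induction and interferon gamma signalling, 3 rose with CD mothers and 3 with WD mothers (medians 0.80 and 0.82). The shares of all genes called higher were 9.46% and 14.2%. Spi1, the myeloid and B cell factor PU.1, rose from 289.6 ± 102.1 normalised counts in CD_CD to 3348 ± 955.9 in CD_WD (3.54 ± 0.51, limma adjusted p = 0.00149) and from 413.8 ± 306.3 in WD_CD to 4435 ± 2102 in WD_WD (3.56 ± 0.51, limma adjusted p = 0.000786). Irf8, a factor of myeloid and B cells, rose by 4.70 ± 0.73 (limma adjusted p = 0.00208; 3.96 without CD_WD replicate 1) and 2.97 ± 0.73 (limma adjusted p = 0.0124, but 0.0521 without WD_CD replicate 2). Ifngr2, a chain of the interferon gamma receptor, rose by 1.38 ± 0.37 (limma adjusted p = 0.0261) and 1.86 ± 0.37 (limma adjusted p = 0.00431). The first of these was lost without any of the 3 CD_CD libraries or CD_WD replicate 2 (limma adjusted p from 0.0558 to 0.0906), and it was at -0.06 when values were scaled to library totals.

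Of 13 symbols listed for class II trafficking and turnover, 9 were found, of which 2 rose with CD mothers and 3 with WD mothers (medians 0.63 and 0.60). Beside these counts, 9.46% and 14.2% of all genes were called higher. Not found were March1 and March8, also listed as Marchf1 and Marchf8. Among the deposited symbols 18 look like dates, so whether these genes were measured is uncertain. Cd83, which protects surface class II from degradation, rose from 371.5 ± 133.5 to 15220 ± 7865 normalised counts with CD mothers (5.29 ± 0.57, limma adjusted p = 0.00054) and from 621.2 ± 543.9 to 15050 ± 5992 with WD mothers (4.88 ± 0.57, limma adjusted p = 0.000377). Cd37, a leukocyte tetraspanin, rose by 3.22 ± 0.82 (limma adjusted p = 0.0201) and 2.51 ± 0.82 (limma adjusted p = 0.0413). The former was lost without CD_CD replicate 1 (0.067) or 2 (0.0894), and the latter without CD_CD replicate 1, WD_CD replicates 2 or 3 or any of the 3 WD_WD libraries (limma adjusted p from 0.0548 to 0.117). Cd63, an endosomal tetraspanin, rose with WD mothers (3.37 ± 0.70, limma adjusted p = 0.00536) and was at 1.48 ± 0.70 with CD mothers (limma adjusted p = 0.175; 2.51 and 0.000875 without CD_WD replicate 1).

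Of 6 measured genes of 8 listed for costimulation of CD4+ T cells, 2 rose with CD mothers and 4 with WD mothers (medians 2.64 and 4.36). The list also holds Cd274 and Pdcd1lg2, whose products mainly inhibit T cells. All genes together gave 9.46% and 14.2% called higher. Cd80 and Cd86, ligands of CD28, rose with WD mothers by 5.24 ± 1.23 (limma adjusted p = 0.00999) and 5.18 ± 1.35 (limma adjusted p = 0.0163; 0.0543 without WD_WD replicate 2). With CD mothers they were at 2.91 ± 1.23 and 3.11 ± 1.35 and did not pass (limma adjusted p = 0.13 and 0.141), although Cd86 passed without WD_CD replicate 2 (0.00273). Cd274, which encodes PD-L1, rose by 4.13 ± 1.08 with WD mothers (limma adjusted p = 0.0163) and was at 2.36 ± 1.08 with CD mothers (limma adjusted p = 0.161; 0.0462 without WD_CD replicate 2). Pdcd1lg2, which encodes PD-L2, passed in both (4.63 ± 1.42, limma adjusted p = 0.0447, and 4.60 ± 1.42, limma adjusted p = 0.0332). Its call with CD mothers was lost without any of the 6 libraries compared or any of the 3 WD_WD libraries (limma adjusted p from 0.0508 to 0.166), and its call with WD mothers without WD_CD replicate 2 (3.13, 0.109) or any of the 3 WD_WD libraries (limma adjusted p from 0.0587 to 0.0959). Cd40, a receptor for help from T cells, rose with CD mothers by 1.54 ± 0.44 (limma adjusted p = 0.0329), which was lost without any of the 6 libraries compared (limma adjusted p from 0.0548 to 0.13).

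By mother's diet, none of these listed genes passed by limma. Ctsl, cathepsin L, had the smallest p among the processing genes in WD offspring (2.98 ± 0.95, limma adjusted p = 0.836), as did Cd63 among the trafficking genes (2.2 ± 0.70, limma adjusted p = 0.836).

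Summed markers of antigen-presenting cells were higher in most libraries of WD offspring. How many single markers passed the test differed by cell type and by mother's diet. The summed level of 12 measured macrophage markers ran from 11129 to 105797 normalised counts across CD offspring, against 365417 to 948943 in 5 of the 6 WD offspring. It was 41262 in CD_WD replicate 1, the library with the highest class II level. Lyz2 alone made up 719905 of the 948943 in WD_WD replicate 1. By the mean log2 level of the 12 macrophage markers the gap was smaller, at 8.47 to 11.41 in CD offspring against 11.91 to 12.73 in the same 5 WD offspring. CD_WD replicate 1 was at 8.68. The sum of 12 dendritic cell markers ran from 819 to 4158 across CD offspring, against 6129 to 20305 across WD offspring, and that of 8 B cell markers from 417 to 4373, against 4845 to 347377. CD_WD replicate 1 had the highest B cell sum, with the B cell receptor gene Cd79a at 259783 normalised counts there and between 2499 and 9460 in the other 5 WD offspring. It also had the highest dendritic cell sum, of which Ccr7, a homing receptor shared with lymphocytes, made up 18224. By the mean log2 level of the 12 dendritic cell markers that library was the lowest of the WD offspring, at 7.46 against 7.71 to 8.14, and level with WD_CD replicate 1 at 7.46. For the 8 B cell markers the mean log2 level ran from 3.47 to 8.35 in CD offspring and from 8.37 to 12.94 in WD offspring, so the ranges nearly met.

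By limma 2 of 12 macrophage markers rose with CD mothers and 7 with WD mothers, 2 and 4 of 12 dendritic cell markers, 4 and 1 of 8 B cell markers, 1 and 1 of 8 T cell markers, and 3 and 4 of 4 neutrophil markers, where 9.46% and 14.2% of all genes did. Under scaling to library totals 0 and 1 macrophage, 1 and 2 dendritic cell and 2 and 1 B cell markers rose. So did 1 and 0 T cell and 3 and 3 neutrophil markers, where 2.73% and 4.12% of all genes rose under it. Against 5.55% and 10.2% of all genes called lower, 8 and 6 of the 13 endothelial markers fell, as did 5 and 2 of 6 smooth muscle markers and 0 and 2 of 6 fibroblast markers. That scaling called 38.5% and 40.2% of all genes lower, and 13 and 12 of the 13 endothelial markers. No marker of these lists was at 0 reads in every library of a group. In libraries of many cells, fewer cells of a type and less RNA per cell cannot be told apart, and the part of these cell types in the class II levels was not tested. Sequencing batch is not in the labels, so a batch that follows the diets cannot be told apart from them.

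**Figure D5:**
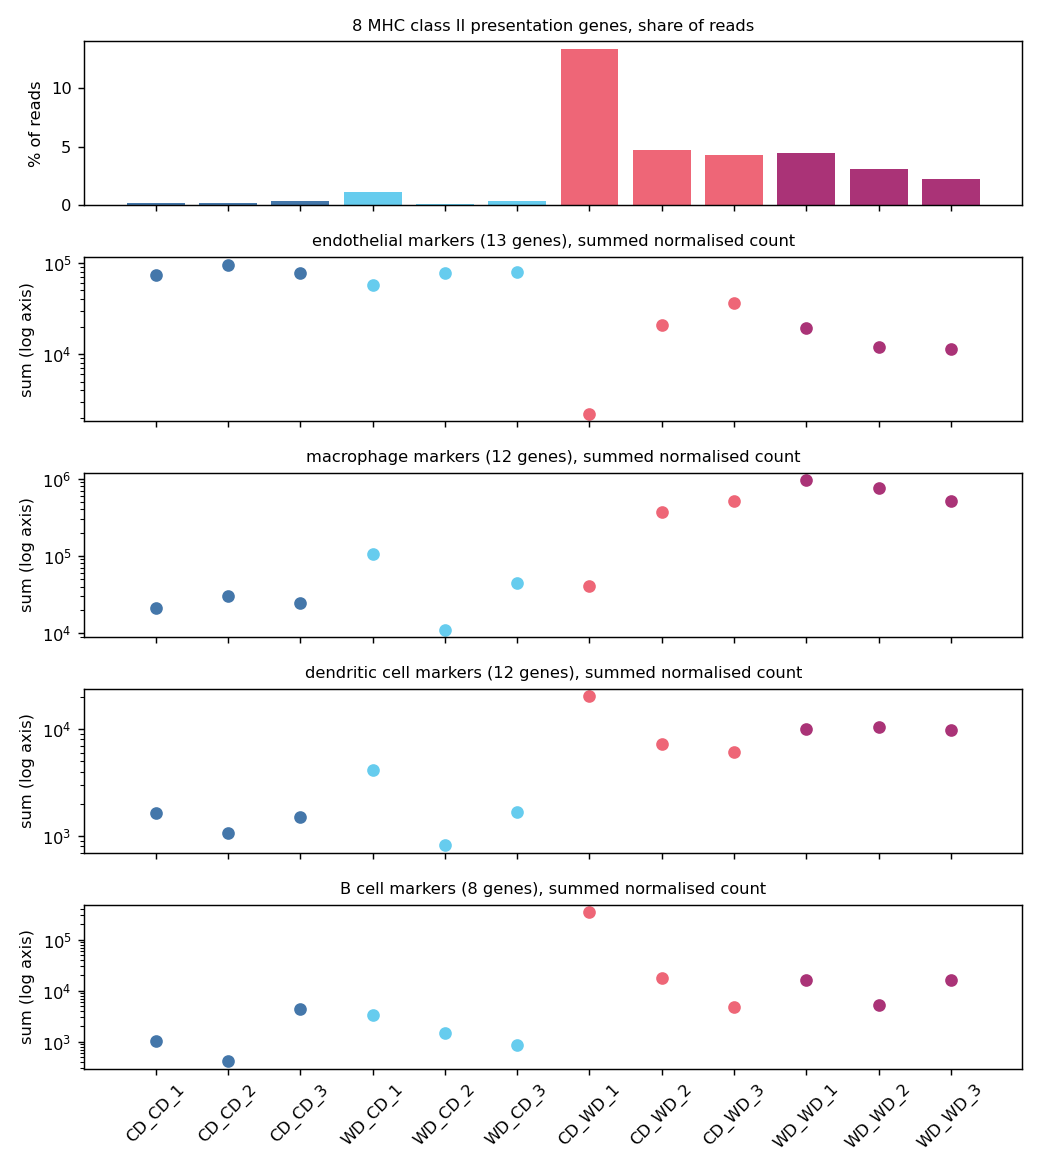
Share of reads of the 8 class II genes (bars) and summed normalised counts of endothelial, macrophage, dendritic cell and B cell markers (log axes) in each of the 12 libraries, coloured by group. CD_WD replicate 1 has the highest class II share (13.3%), the lowest endothelial sum (2216) and the highest B cell sum (347377).

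Genes whose levels followed the class II genes from library to library within groups were found by comparing deviations from group means on the log2 scale with the mean of H2-Aa, H2-Ab1, H2-Eb1 and Cd74. Over the 12 libraries and 8694 genes with a mean of at least 100 normalised counts, the 10 highest Pearson r belonged to Rpl36al (0.971), Cyba (0.95), Sdhb (0.948), Uqcrq (0.946), Romo1 (0.941), Rpl28 (0.936), Rpl39 (0.928), Psmb2 (0.926), Fnbp1 (0.924) and Cd52 (0.919). Rpl36al, Rpl28 and Rpl39 encode ribosomal proteins, Sdhb and Uqcrq parts of the respiratory chain, Psmb2 a proteasome subunit, Cyba a subunit of the phagocyte NADPH oxidase, and Cd52 a leukocyte surface glycoprotein. These r are descriptions without a test, and all genes of a library share its depth and its RNA. Among the other class II genes H2-DMb2 (0.913), H2-DMa (0.912) and Ciita (0.881) ranked 15, 16 and 46, and H2-DMb1 (0.687) ranked 560. H2-Oa and H2-Ob were at 0.598 and 0.594. Without CD_WD replicate 1, r was 0.868 for H2-DMb2, 0.849 for H2-DMa, 0.799 for Ciita, 0.669 for H2-DMb1, 0.348 for H2-Oa and 0.381 for H2-Ob. The 10 genes of highest r then ran from 0.88 (Cd52) to 0.955 (Rpl36al). For cell type markers r depended more on that library. For H2-Aa, r with the mean of the macrophage markers was -0.12 with it and 0.79 without it. With the dendritic cell markers these values were 0.60 and 0.94, and with the B cell markers 0.67 and 0.49. This dependence was not tested.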

How the data were processed

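The members and gene lists were chosen with earlier results of these data known. The authors deposited 1 table of 10655 genes that holds a normalised signal per gene and library, per the file headers, and, for both comparisons of mothers' diets, a log2 fold change and a p-value with its adjusted p. The submitters' processing notes name the GRCm38 (mm10) genome, HISAT2 2.2.1 and SAMtools 1.13, featureCounts 2.0.1, DESeq2 and, for read quality Trim Galore 0.6.10 and FastQC 0.12.1. How strand and multi-mapping reads were treated is not given in the sources used here. All 127860 values (100%) were whole multiples of 1 read within 0.01, which gave the reads per library; the smallest value in replicate 3 of CD_CD stands for 3 reads.

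The planned edgeR test needs counts as deposited, so the planned fallback was used. Limma 3.58.1 (R 4.3.3) was run with a mean-variance trend and a mean per group on log2(value + 1) of all 12 libraries, leaving 8 residual degrees of freedom. A pseudocount understates changes of low genes. The minimum mean of 1 removed 0 genes. Benjamini-Hochberg adjusted p-values under 0.05 over all genes were called. Alternatives were other scalings, pseudocounts and filters, edgeR 4.0.16 and DESeq2 1.42.0 on the recovered reads, a replicate block, the compared groups only, and each library left out. On those reads edgeR called 1452 genes with CD mothers and 2115 with WD mothers. The test was tried on simulated data first.

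All members were described. 1 gene of the interferon gamma list is not reported here. From each list the genes that passed were named, at most 4 by smallest p, otherwise the gene of smallest p, and H2-Oa and H2-Ob always; the neighbours in the locus and the genes of the marker lists that are named were picked after values were seen. Genes most alike were the 10 of highest r. Lengths are the union of GENCODE exons.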

Additional observations from a re-analysis of the deposited data

How the results depend on the processing

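The 6 genes Cd74, H2-Aa, H2-Ab1, H2-Eb1, H2-DMa and H2-DMb1 passed in both offspring diet comparisons under every alternative that gave them an adjusted p; DESeq2 gave none for H2-Aa and H2-DMb2. Calls among the 8 genes numbered 6 to 8 with CD mothers and 5 to 7 with WD mothers, and 0 for mother's diet and the interaction throughout. Of 348 values of the 8 genes in the offspring comparisons 0 turned sign, against 23 of 514 in the others, so the direction by mother's diet depends on the alternative.

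Scaling to library totals moved the median of all genes to -1.45 with CD mothers and -1.358 with WD mothers. It gave 4388 calls (291 higher, 4097 lower) in place of 1599 (63.0% higher) and 4723 calls (439 higher, 4284 lower) in place of 2604 (58.2% higher). Under it Cd74 was still higher, by 4.85 (limma adjusted p = 0.00145) and 3.05 (limma adjusted p = 0.00667), while H2-DMb2 (3.93 and 3.97; limma adjusted p = 0.0589 and 0.0539) and Ciita (2.67 with CD mothers, limma adjusted p = 0.0775) did not pass. Calls of other named genes lost under it were Ctsz, Cd37, Cd40, Pdcd1lg2 and Psmb9 with CD mothers (0.10 for Cd40 to 3.46 for Pdcd1lg2), and H2-Oa, H2-Ob, Ctsd, Ifngr2, Irf8, Cd63, Cd37, Cd274, Pdcd1lg2 and Psmb8 with WD mothers (0.48 for Ifngr2 to 3.48 for H2-Oa and Pdcd1lg2). Signs that turned were counted among the listed genes and those of the locus that were called under either scaling. They turned with CD mothers for Ifngr2 (-0.06), Jak1 (-1.27), Irf2 (-1.27), Tap1 (-0.20) and Tap2 (-0.95). With WD mothers they turned for Ctsh (-1.33), Nfyc (-1.19), Irf2 (-1.24), Ap1m1 (-1.21), Cd82 (-1.10) and Psmb9 (-0.03). With only the compared groups, Ciita, Cd37, Pdcd1lg2 and Tap1 with CD mothers and Cd80 and Pdcd1lg2 with WD mothers did not pass (limma adjusted p = 0.0861 for Ciita), and by edgeR's quasi-likelihood test H2-DMb2 (3.47, adjusted p = 0.12), H2-Ob, Cd37, Pdcd1lg2 and Psmb9 with WD mothers and Pdcd1lg2 and Tap1 with CD mothers did not.

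Over all genes, where limma called 0, DESeq2 called 9 by mother's diet in CD offspring, 14 in WD offspring and 10 in the interaction. With libraries left out singly the counts were 0 to 3 by mother's diet in CD offspring, 0 to 10 in WD offspring, 698 (without CD_CD replicate 1; 705 without replicate 2) to 1714 by offspring's diet with CD mothers, and 1593 (without WD_CD replicate 2) to 3335 with WD mothers. Same-numbered libraries did not deviate together (r from -0.232 to 0.0713). A replicate block left the counts among the 8 genes at 8 and 7 and called 1 gene by mother's diet in WD offspring; under it Pdcd1lg2 no longer passed and H2-Ob with CD mothers did (limma adjusted p = 0.0386). Apart from scaling, the causes were not tested. With 3 libraries a group, differences by mother's diet of the size seen are not resolved, and the lowest values, such as 9 reads of H2-DMb2, carry large counting error.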
